A study of Homo sapiens with 42 samples.

Results

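The comparison between culture in stromal medium and culture in plain medium, both under the FLT3 inhibitor quizartinib, was examined in the RNA of whole-cell lysates (input). It used 6 of the 42 libraries of the series, the 3 input libraries of quizartinib-treated cells in hBMSC-CM and the 3 in RPMI, taken by their names in the count table and paired by replicate number. The main test did not use this pairing, which enters only the fits with a replicate block and the counts of pairs. All cultures were of MOLM-13, a line of acute myeloid leukemia cells whose FLT3 gene carries an internal tandem duplication (FLT3-ITD). RPMI is a standard culture medium, and hBMSC-CM is medium that had bathed HS-5 cells, a stromal line from human bone marrow, and was then filtered and mixed with fresh medium, so the leukemia cells met what stromal cells secrete and not the cells themselves. Quizartinib (AC220) was given at 3 nM for 12 hours in both groups, with no everolimus, and there were 3 cultures a group. Vehicle-treated cultures in both media, cultures given quizartinib with 10 nM everolimus (combo) and the heavy polysome RNA of the same 6 cultures, which is the RNA loaded with several ribosomes, were used for comparison. The design uses 1 cell line and 1 stromal line, and the labels do not say whether cultures of a group were grown apart, so the p-values measure the spread between libraries. In the main test that spread was estimated over all 42 libraries of 14 groups, input and polysome, and not over these 6 alone.

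FLT3 is a receptor tyrosine kinase of blood progenitors, and its internal tandem duplication keeps it active without ligand. The mutant receptor signals through STAT5, through the RAS, RAF and ERK kinases and through PI3K and AKT, and quizartinib acts on the receptor itself. Stromal cells secrete cytokines and growth factors whose receptors reach JAK kinases, STAT factors and ERK by routes that do not pass through FLT3. The genes that these routes switch on, among them the PIM kinases, the SOCS inhibitors, the dual-specificity phosphatases, ETS factors and MYC, serve as readouts of pathway activity, and many of them feed back on the pathway itself.

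Total counts were 19.4 to 34.0 M over the 6 libraries, lowest in hBMSC-CM replicate 3, and 19391 to 21486 genes had a count. Messages encoded in mitochondria took 6.66% and 7.77% of the replicate 1 libraries of hBMSC-CM and RPMI and 3.13% to 3.96% of the other 4. Of 26 marker genes of stromal cells, 7 had no count in any of the 6 libraries, among them CXCL12, LUM and POSTN, and 11 to 14 were at 0 in each. Their summed level was 165 to 206 CPM (counts scaled to a common library total, here without the TMM composition factors used elsewhere) in hBMSC-CM and 158 to 184 in RPMI, most of it from IGFBP7, and 0 of the 5 that passed the expression filter were called by the test described next, DESeq2 or limma voom (1 had an unadjusted p under 0.05). Of 12 tested markers of the leukemia line 11 were detected in all 6 libraries, and CD14 in hBMSC-CM alone. LYZ, ITGAM and CD14 were called higher and FLT3 lower, and the other 8, among them PTPRC, CD33, HOXA9 and MPO, were not called. With the replicate block on the 6 libraries alone, 4 of all 12 markers were higher and 3 lower.

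Under quizartinib 1056 of the 12939 genes tested (8.16%) differed between the media in edgeR's quasi-likelihood test at a Benjamini-Hochberg adjusted p under 0.05, and such genes are here referred to as called. Of these, 791 (6.11% of genes tested) were higher and 265 (2.05%) were lower in hBMSC-CM, and 544 and 158 of them differed at least 2-fold. The median log2 difference over all genes was -0.028. Replicate values of the media did not overlap for 3853 genes (29.8%), of which 2026 were higher (15.7%) and 1827 lower (14.1%). A block for the replicate number raised the count to 1541 genes, and to 4786 (2514 higher) when only these 6 libraries were fitted. The main test, which has no block, called 703 genes without hBMSC-CM quizartinib replicate 3. The levels are those of a bulk culture, in which fewer cells of a kind and less RNA per cell cannot be told apart.

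Genes switched on by JAK and STAT signalling were higher in hBMSC-CM. Of 21 tested members of a list of JAK-STAT targets and feedback genes, 17 were higher and 0 lower, where 6.11% of all genes were called higher, and their median log2 difference was 1.47 against -0.028 for all genes. SOCS3 (ENSG00000184557, chromosome 17, 78356778 to 78360077, minus strand, GRCh38) encodes an inhibitor that cytokine receptors of the IL-6 family induce against themselves. It stood at 128, 114 and 154 CPM in the hBMSC-CM cultures and 2.99, 4.88 and 4.72 CPM in the RPMI cultures (log2 difference 4.97, SE 0.27, edgeR adjusted p 1.06e-15). PIM2, an anti-apoptotic serine kinase, stood at 40.1, 40.3 and 37.6 CPM in the hBMSC-CM cultures and 5.73, 6.10 and 7.75 CPM in the RPMI cultures (log2 difference 2.59, SE 0.26, edgeR adjusted p 6.05e-09). The lowest hBMSC-CM value of each gene lay several-fold above the highest RPMI value. OSM (chromosome 22, 30262829 to 30266851, minus strand), a secreted cytokine of the IL-6 family that is itself a STAT5 target, stood at 55.8, 60.2 and 115 CPM against 1.62, 3.21 and 5.13 CPM (log2 difference 4.54, SE 0.45, edgeR adjusted p 5.48e-09).

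CISH, a feedback inhibitor that STAT5 induces, stood at 83.8, 66.7 and 82.6 CPM in the hBMSC-CM cultures and 21.1, 24.6 and 24.1 CPM in the RPMI cultures (log2 difference 1.74, SE 0.16, edgeR adjusted p 1.19e-09). LRG1, a secreted glycoprotein of the acute-phase response, stood at 471, 326 and 473 CPM against 84.5, 106 and 111 CPM (log2 difference 2.08, SE 0.19, edgeR adjusted p 1.19e-09). ID1, an inhibitor of basic helix-loop-helix factors, was at 15.1, 14.97 and 29.5 CPM against 1.23, 2.25 and 1.96 CPM (log2 difference 3.44, SE 0.37, edgeR adjusted p 2.1e-08). The lowest hBMSC-CM culture lay above the highest RPMI culture in each of these genes. The D-type cyclins CCND2 and CCND3 were higher by 1.18 ± 0.16 and 1.36 ± 0.19 log2 units (± SE), with edgeR adjusted p values of 3.54e-06 and 4.93e-06. BCL6, a transcriptional repressor, stood at 22.9, 19.4 and 14.04 CPM against 9.74, 6.86 and 7.77 CPM (log2 difference 1.21, edgeR adjusted p 0.0199) and did not pass without RPMI quizartinib replicate 2 (adjusted p 0.106), RPMI quizartinib replicate 3 (0.0614) or hBMSC-CM quizartinib replicate 1 (0.0874).

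The exceptions in the list were SOCS2, BCL2L1, MCL1 and NFIL3. SOCS2, which like CISH restrains STAT5 signalling, was at 147, 112 and 114 CPM against 197, 173 and 179.6 CPM, the opposite order with no overlap (log2 difference -0.56, SE 0.20, edgeR adjusted p 0.0908, or 0.027 with replicates as blocks). MCL1, the BCL2 relative that protects myeloid cells, was at 168, 163 and 172 CPM against 128, 129 and 113 CPM (log2 difference 0.44, SE 0.16, edgeR adjusted p 0.0927, or 0.0439 with blocks). BCL2L1, which encodes BCL-XL, was at 24.6, 17.95 and 17.3 CPM against 26.99, 20.2 and 25.6 CPM, with overlapping groups (edgeR adjusted p 0.742).

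STAT dimers bind the palindrome TTCNNNGAA, which reads the same on both strands. Promoter windows of 300 bases from RefSeq (GRCh38.p14), 250 before to 50 after the gene's start, were found for 14 of the 17 called genes (the first listed where a gene has several), and 3 of these (21.4%) hold the motif, against 7.66% of all 35116 promoter windows and 6.14% of the 8943 that belong to genes tested. Among all tested members of the list, called or not, 3 of 16 with a window (18.8%) hold it. Over all genes called higher the share was 7.29%, and over all called lower 3.59%. These counts describe the letters in the windows and not binding. The 250 bases before the start of these 3 genes are shown, minus strand, read in the direction of transcription, because they are the called targets whose own promoters carry the motif, here in capitals. CISH is at chr3:50611775-50612024, LRG1 at chr19:4540037-4540286 and BCL6 at chr3:187745469-187745718.
CISH: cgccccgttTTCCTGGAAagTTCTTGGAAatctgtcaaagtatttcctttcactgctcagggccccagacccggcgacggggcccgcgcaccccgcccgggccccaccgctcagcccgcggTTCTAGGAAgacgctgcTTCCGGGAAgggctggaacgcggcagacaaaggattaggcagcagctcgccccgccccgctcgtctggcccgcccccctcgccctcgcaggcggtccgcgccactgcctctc
LRG1: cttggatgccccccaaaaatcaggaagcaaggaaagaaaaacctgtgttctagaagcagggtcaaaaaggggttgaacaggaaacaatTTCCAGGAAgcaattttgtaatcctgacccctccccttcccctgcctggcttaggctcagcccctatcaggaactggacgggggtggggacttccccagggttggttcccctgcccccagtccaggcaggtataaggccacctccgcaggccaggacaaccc
BCL6: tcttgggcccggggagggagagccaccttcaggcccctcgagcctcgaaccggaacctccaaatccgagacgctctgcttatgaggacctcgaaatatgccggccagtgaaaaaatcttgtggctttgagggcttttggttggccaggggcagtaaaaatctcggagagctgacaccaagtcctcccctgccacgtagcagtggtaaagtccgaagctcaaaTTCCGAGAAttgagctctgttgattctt
The CISH promoter holds 4 copies in 2 close pairs, the first of which starts 241 bases and the last 112 bases before the gene. In the bases shown LRG1 and BCL6 hold a copy each, which starts 162 bases before LRG1 and 28 bases before BCL6. The whole window of BCL6 holds 4 copies, the rest of which span or follow its start.

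**Figure D1:**
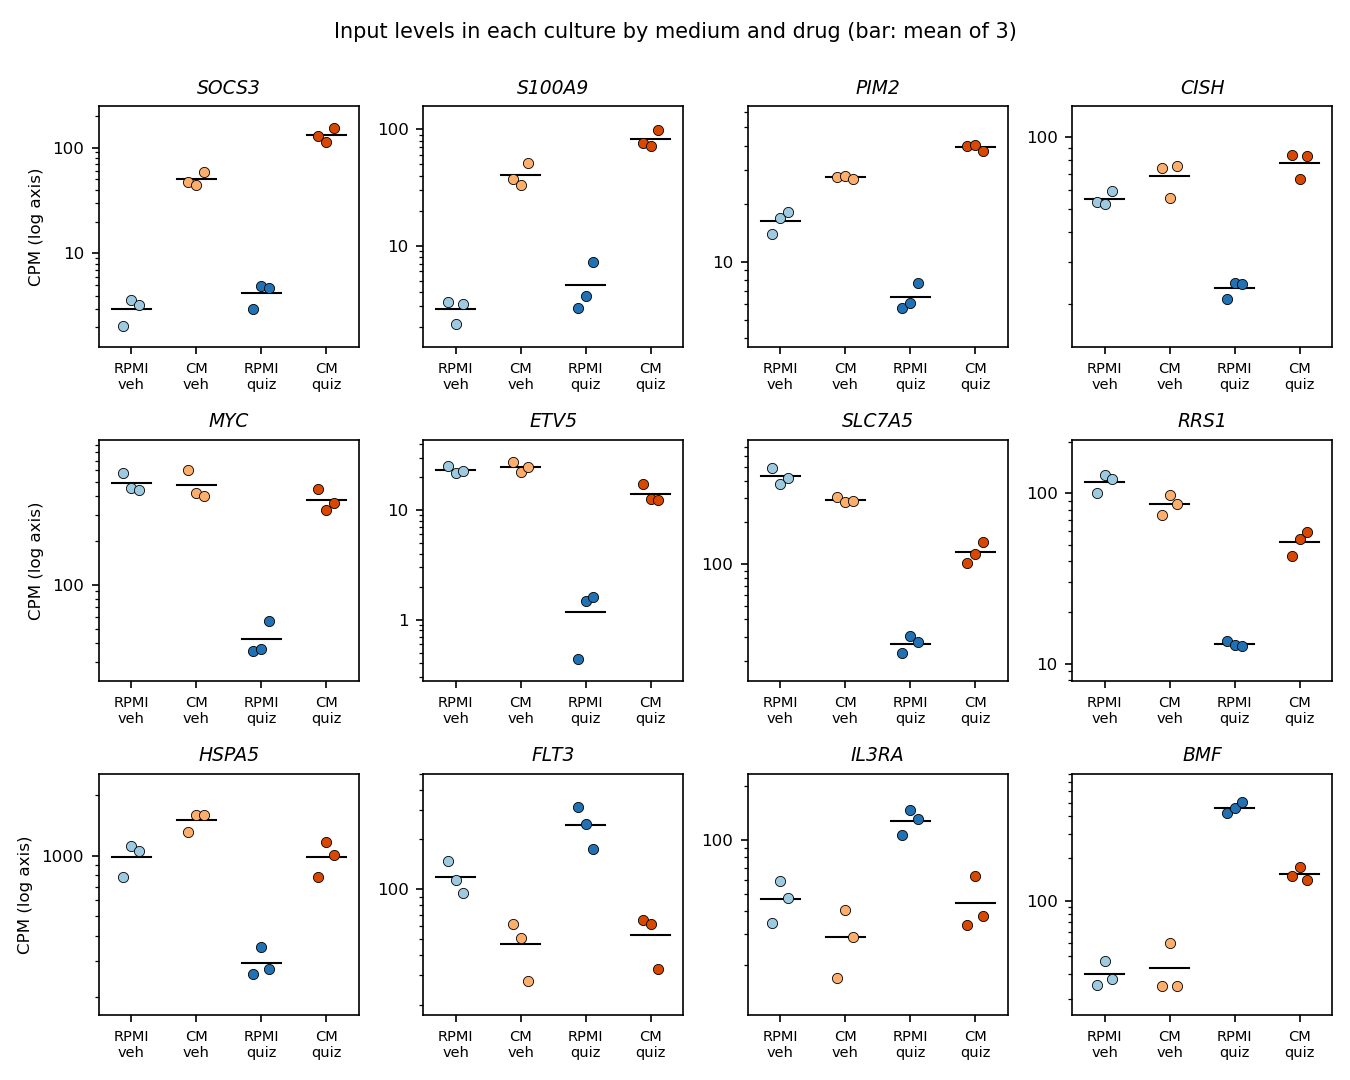
Input levels of 12 genes in CPM (log axis) in each culture, by medium and drug, with RPMI in blue and hBMSC-CM in orange, pale for vehicle (veh) and dark for quizartinib (quiz), and a bar at the mean of 3. SOCS3 and S100A9 stood far apart between the media with and without drug, whereas the medium difference of ETV5, SLC7A5 and RRS1 under quizartinib exceeded that under vehicle by 3.49, 2.74 and 2.43 log2 units.

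Of 10 tested JAK and STAT genes, the transducers themselves, 1 was higher, where 6.11% of all genes were, and 0 were lower. With the replicate block 2 were higher and 0 lower, and 5 higher and 3 lower when the 6 libraries were fitted alone with it, a fit that called 2514 of all genes higher and 2272 lower. The called gene was JAK3, the kinase of receptors with the common gamma chain, at 59.7, 65.5 and 76.7 CPM against 16.7, 16.9 and 16.3 CPM (log2 difference 2.02, SE 0.26, edgeR adjusted p 7.91e-07). STAT3 stood at 176, 141 and 106 CPM against 102, 91.8 and 51.4 CPM, higher in every hBMSC-CM culture, without passing (log2 difference 0.78, SE 0.29, edgeR adjusted p 0.102), and it passed with the replicate block (adjusted p 0.000241). STAT5A was at 69.4, 66.3 and 64.6 CPM against 80.2, 84.4 and 72.98 CPM, lower in every hBMSC-CM culture, and did not pass either (edgeR adjusted p 0.522).

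Cytokine and growth factor receptors moved in both directions, with 7 of 25 tested members higher, where 6.11% of all genes were, and 4 lower, where 2.05% were. The number higher was 4 without RPMI quizartinib replicate 1, and the number lower was 2 without hBMSC-CM quizartinib replicate 3. The largest rise was in IL7R, the receptor chain for the lymphoid cytokine IL-7. It stood at 11.6, 10.1 and 11.9 CPM in the hBMSC-CM cultures and 0.165, 0.354 and 0.273 CPM in the RPMI cultures (log2 difference 5.38, SE 0.72, edgeR adjusted p 1.55e-06). IL15RA, which presents IL-15, stood at 4.95, 4.33 and 6.64 CPM against 0.823, 0.0759 and 0.600 CPM (log2 difference 3.41, SE 0.55, edgeR adjusted p 3.92e-05). In RPMI both genes lay below the 1 CPM of the expression filter, so levels in hBMSC-CM helped carry them past it. IL17RA, a widely expressed receptor for IL-17, was at 436, 512 and 506 CPM against 267, 334 and 301 CPM (log2 difference 0.69, edgeR adjusted p 0.000554).
The 4 lower receptors were FLT3, IL3RA, IL6R and AXL. FLT3 itself, the target of the drug, stood at 65, 61.5 and 32.6 CPM against 313, 247 and 176 CPM, lower in hBMSC-CM in 3 of 3 pairs. IL3RA, the alpha chain of the IL-3 receptor and a surface marker of leukemic blasts, stood at 33.7, 62.7 and 37.5 CPM against 106, 146 and 129.7 CPM (log2 difference -1.51, SE 0.36, edgeR adjusted p 0.0044). IL6R stood at 118, 130.0 and 94.9 CPM against 220.1, 208 and 156 CPM (log2 difference -0.77, SE 0.18, edgeR adjusted p 0.00393) and lost its call without hBMSC-CM quizartinib replicate 3 (adjusted p 0.0517). The receptors for G-CSF and GM-CSF were not called, with CSF3R at 488, 603 and 608 CPM against 272, 405 and 458 CPM (edgeR adjusted p 0.263) and CSF2RB at 10.7, 9.38 and 7.88 CPM against 7.93, 7.13 and 5.40 CPM (0.614).

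Of 14 tested feedback genes of the ERK pathway 9 were higher, where 6.11% of all genes were, and 0 lower. Their median log2 difference was 1.73. ETV5 (chromosome 3, 186046314 to 186110318, minus strand), an ETS factor that follows ERK activity, stood at 17.4, 12.6 and 12.3 CPM in the hBMSC-CM cultures and 0.439, 1.47 and 1.61 CPM in the RPMI cultures (log2 difference 3.58, SE 0.43, edgeR adjusted p 2.24e-07). SPRED1 and SPRED2, which hold back RAS, stood at 7.68, 4.16 and 7.31 CPM against 1.95, 1.24 and 1.01 CPM (log2 difference 2.19, SE 0.36, edgeR adjusted p 5.35e-05) and at 22.3, 17.1 and 10.3 CPM against 5.84, 6.30 and 5.78 CPM (log2 difference 1.47, SE 0.29, edgeR adjusted p 0.000596). IER3, an early response gene downstream of ERK, stood at 43.7, 36.9 and 52.2 CPM against 1.18, 3.06 and 5.10 CPM (log2 difference 3.83, SE 0.36, edgeR adjusted p 1.65e-09). Values of the media did not overlap for these genes. ETV4, close in sequence and role to ETV5, was lower in level throughout, at 2.99, 2.95 and 4.16 CPM against 0.411, 0.354 and 0.327 CPM, and was called (edgeR adjusted p 4.26e-05). Among the members not called, SPRY4 stood at 1.48, 2.43 and 3.10 CPM against 0, 0.177 and 1.17 CPM (log2 difference 2.37, SE 0.79, edgeR adjusted p 0.0576, or 0.00273 with replicates as blocks) and DUSP7 at 34.8, 27.6 and 28.1 CPM against 43.6, 31.8 and 34.5 CPM (edgeR adjusted p 0.698). With RPMI quizartinib replicate 1 left out, 6 members were called.

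Of 19 immediate early genes of the AP-1 and EGR families, 6 were higher and 2 lower, KLF2 and BTG2, where 6.11% and 2.05% of all genes were. The number lower was 1 without RPMI quizartinib replicate 3 and without each hBMSC-CM culture in turn. EGR1, a zinc finger factor induced within minutes of a growth signal, stood at 71.5, 33.7 and 27.01 CPM in the hBMSC-CM cultures and 2.52, 2.76 and 2.81 CPM in the RPMI cultures (log2 difference 4.03, SE 0.58, edgeR adjusted p 6.25e-06). The hBMSC-CM values spread more than the RPMI values, which lay within 2.52 to 2.81 CPM. JUNB, an AP-1 subunit that STAT3 also induces, stood at 198, 188 and 230.3 CPM against 74.8, 99.6 and 80.2 CPM (log2 difference 1.27, SE 0.20, edgeR adjusted p 3.32e-05). BTG2, an antiproliferative gene, was lower in hBMSC-CM, at 17.1, 13.6 and 11.6 CPM against 47.7, 46.4 and 23.97 CPM (log2 difference -1.48, SE 0.31, edgeR adjusted p 0.00114). JUND stood at 269.7, 265 and 631 CPM against 284, 302 and 409 CPM (edgeR adjusted p 0.833), with overlapping groups.

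MYC and 28 of 49 tested genes of ribosome biogenesis were higher in hBMSC-CM. MYC stood at 449, 322 and 362 CPM against 35.2, 36.5 and 56.3 CPM, with no overlap. Of 12 tested genes of the MYC and MAX network 2 were higher, MYC and MXD1, 1 was lower and 9 were not called. Over all genes 6.11% were higher and 2.05% lower. MXD1, a repressor that competes for MAX and marks differentiating myeloid cells, was higher, at 177, 188 and 153 CPM against 23.5, 31.6 and 18.7 CPM (log2 difference 2.81, SE 0.28, edgeR adjusted p 4.57e-09). MXD4, of the same family, was lower, at 73.9, 59.3 and 67.7 CPM against 163, 126 and 153 CPM (log2 difference -1.14, SE 0.29, edgeR adjusted p 0.00806). MAX, the shared partner, was at 90.4, 75.8 and 64.3 CPM against 78.7, 70.4 and 62.8 CPM (edgeR adjusted p 0.898).
In ribosome biogenesis 0 genes were lower, the median log2 difference was 1.04, and 26 to 28 were higher when each culture was left out in turn. RRS1, a ribosome assembly factor, stood at 42.97, 54.1 and 59.1 CPM in the hBMSC-CM cultures and 13.6, 12.9 and 12.6 CPM in the RPMI cultures (log2 difference 2.00, SE 0.28, edgeR adjusted p 3.54e-06). DDX21, a nucleolar RNA helicase, stood at 48.98, 54.7 and 41.1 CPM against 13.4, 12.98 and 6.35 CPM (log2 difference 2.14, SE 0.30, edgeR adjusted p 3.27e-06). BYSL, needed for the small subunit, stood at 39.4, 39.9 and 59.7 CPM against 12.5, 14.1 and 19.7 CPM (log2 difference 1.58, SE 0.21, edgeR adjusted p 1.52e-06), and NOLC1, a nucleolar chaperone, at 79.4, 107 and 96.1 CPM against 28.5, 33.2 and 22.4 CPM (log2 difference 1.75, SE 0.26, edgeR adjusted p 1.2e-05). In each of these genes the lowest hBMSC-CM culture lay above the highest RPMI culture. The abundant nucleolar proteins NCL and NPM1 were not called, NCL at 793, 898 and 1067 CPM against 683, 568 and 640.3 CPM (edgeR adjusted p 0.439) and NPM1 at 1128, 979.8 and 1094 CPM against 1361, 1156 and 1349.6 CPM (0.784). The letters CACGTG, the core of the site that MYC and MAX share with other factors, are their own reverse complement. They occur in the promoter windows of 12 of the 38 ribosome biogenesis genes with a window, called or not (31.6%). Among the 23 of these called higher, 7 hold them (30.4%). Over all genes they occur in 85 of 590 called higher (14.4%), in 24 of 195 called lower (12.3%) and in 10.5% of genes tested.

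The ribosomal proteins themselves were not called. Of 77 tested in edgeR's test over all libraries, 0 were higher and 0 lower, with an unadjusted p under 0.05 in 2, and DESeq2 and limma voom also called 0. Their median log2 difference was -0.26, and 5 of the 77 stood above 0, with RPL13A, a large subunit protein, at 6634, 4589.8 and 6366 CPM against 7869, 5941 and 6682 CPM (edgeR adjusted p 0.662). With only these 6 libraries fitted and the replicate number as a block, 65 were lower and 2 higher.

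**Figure D2:**
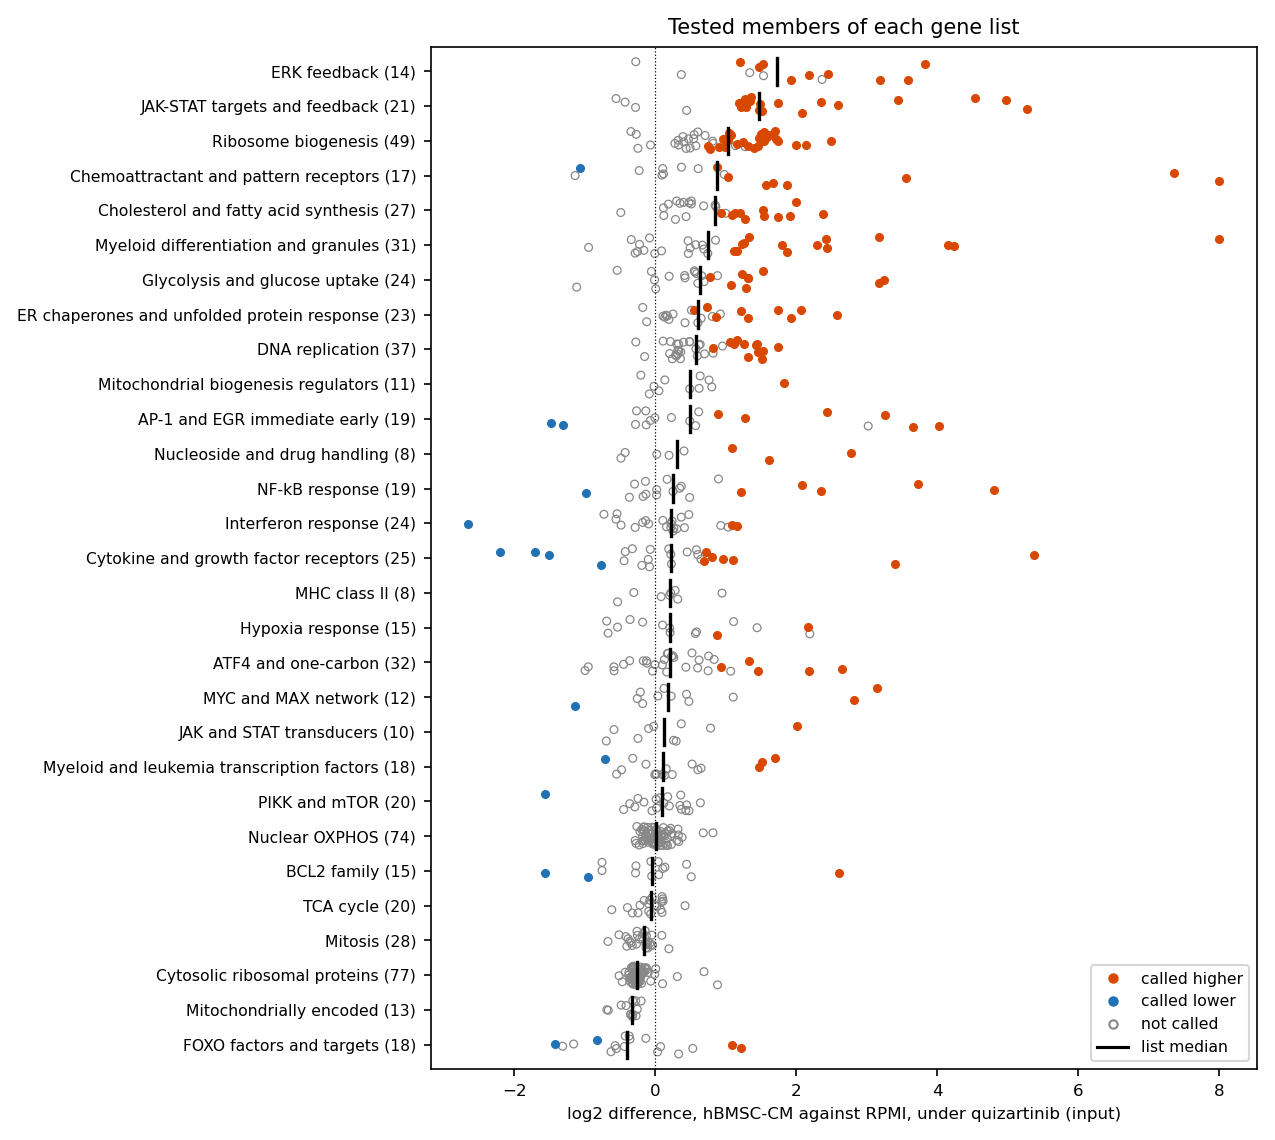
Log2 difference between hBMSC-CM and RPMI under quizartinib in input RNA for each tested member of 29 gene lists, with called genes as filled points (edgeR adjusted p under 0.05). JAK-STAT targets, ERK feedback and ribosome biogenesis genes sit mostly above 0 with many filled points, whereas the ribosomal protein, oxidative phosphorylation, TCA cycle and mitosis lists hold no filled point.

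Pathways of energy metabolism differed in their counts. In glycolysis, the breakdown of glucose to pyruvate, 9 of 24 genes were higher, where 6.11% of all genes were, and 0 lower. Their median log2 difference was 0.63. PFKFB3, which makes the activator of phosphofructokinase, stood at 151, 153 and 175 CPM in the hBMSC-CM cultures and 49.7, 64.8 and 51.8 CPM in the RPMI cultures (log2 difference 1.53, SE 0.21, edgeR adjusted p 1.77e-06). SLC2A1, the main glucose transporter, stood at 56.6, 49.2 and 52.6 CPM against 17.9, 28.2 and 17.8 CPM (log2 difference 1.31, SE 0.21, edgeR adjusted p 3.1e-05). LDHA, which converts pyruvate to lactate, stood at 246, 241 and 235 CPM against 115, 114 and 77.3 CPM (log2 difference 1.24, SE 0.22, edgeR adjusted p 0.000158), and PKM, the last enzyme of the pathway, at 1270.4, 1254 and 1090.1 CPM against 493, 583 and 380.2 CPM (log2 difference 1.31, SE 0.25, edgeR adjusted p 0.000356). The media did not overlap for these genes. GAPDH, between them in the same pathway, stood at 3539.8, 2834 and 2509 CPM against 3957, 2908 and 2372 CPM with overlapping groups (edgeR adjusted p 0.94). The glucose transporter SLC2A3 was higher, at 108, 73.4 and 147 CPM against 9.49, 13.1 and 12.1 CPM (log2 difference 3.24, SE 0.34, edgeR adjusted p 1.69e-08), while its near-identical neighbour SLC2A14 was lower, at 7.74, 11.7 and 8.46 CPM against 21.8, 26.9 and 26.6 CPM (log2 difference -1.43, SE 0.30, edgeR adjusted p 0.00105). How reads that fit both of these 2 genes were counted was not stated, so both values are uncertain.

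No list of mitochondrial respiration had a called gene in edgeR's test over all libraries. Among 74 nuclear genes of oxidative phosphorylation 0 were higher and 0 lower by edgeR, DESeq2 and limma voom, with an unadjusted p under 0.05 in 3, and their median log2 difference was 0.011, or -0.0032 by limma voom. Of these, COX4I1, a subunit of cytochrome oxidase, stood at 532, 491 and 722 CPM against 572, 501 and 629 CPM (edgeR adjusted p 0.963). The 13 genes encoded in mitochondrial DNA had a median log2 difference of -0.33, with 0 called by the same 3 tools and 0 at an unadjusted p under 0.05. Their levels varied more between replicates than between media, as in MT-CO1 at 12702, 6081 and 4956 CPM against 14596, 7761 and 6005 CPM. Fitted with the replicate block on these 6 libraries alone, all 13 were lower in hBMSC-CM, as were 6 nuclear genes of the chain, while 7 others were higher. In the TCA cycle 0 of 20 genes were called by any of the 3 tools, 4 had an unadjusted p under 0.05, and MDH2, malate dehydrogenase, stood at 284, 210.2 and 182 CPM against 269, 206 and 166 CPM (edgeR adjusted p 0.927). Among 11 regulators of mitochondrial biogenesis 1 was called, a share near the 8.16% of all genes, and 2 were called with the replicate block. The 1 gene was PPRC1, a coactivator induced by growth signals, at 48.9, 65.8 and 98.7 CPM against 16.5, 19.4 and 24.2 CPM (log2 difference 1.83, SE 0.31, edgeR adjusted p 7.22e-05).

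Of 32 genes regulated by ATF4 or active in one-carbon metabolism, 5 were higher, where 6.11% of all genes were, 0 lower and 27 not called. Their median log2 difference was 0.20. SLC7A1, which imports arginine and lysine, stood at 40.9, 49 and 45.4 CPM in the hBMSC-CM cultures and 6.25, 7.82 and 7.42 CPM in the RPMI cultures (log2 difference 2.65, SE 0.26, edgeR adjusted p 3.73e-09). SLC7A5, which imports leucine, stood at 102, 119 and 145 CPM against 22.95, 30.2 and 27.3 CPM (log2 difference 2.18, SE 0.25, edgeR adjusted p 5.75e-08), and SLC1A5, which imports glutamine, at 175, 185 and 145 CPM against 64.8, 63.5 and 55.1 CPM (log2 difference 1.46, SE 0.27, edgeR adjusted p 0.000226). These 3 transporters were separated between the media by more than the spread of either group. MTHFD2, a mitochondrial folate enzyme, was higher, at 92.5, 87.97 and 65.9 CPM against 36.7, 36.9 and 24.6 CPM (log2 difference 1.33, SE 0.21, edgeR adjusted p 2.53e-05). ATF4 itself stood at 292, 256 and 599.7 CPM against 368, 314 and 569 CPM, with overlapping groups (edgeR adjusted p 0.9), and so did the serine enzyme SHMT2, at 201, 157 and 169 CPM against 203, 161 and 166 CPM (0.995). Of 8 nucleoside and drug handling genes 3 were higher, where 6.11% of all genes were. Among them was the nucleoside transporter SLC29A1, through which cytarabine enters cells. SLC29A1 stood at 22.4, 25.98 and 24.4 CPM against 3.02, 3.09 and 4.50 CPM (log2 difference 2.78, SE 0.36, edgeR adjusted p 8.38e-07).

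Of 27 genes of cholesterol and fatty acid synthesis, 11 were higher, where 6.11% of all genes were, 0 lower and 16 not called. Their median log2 difference was 0.85. FASN, fatty acid synthase, stood at 102, 165 and 169 CPM against 33.8, 49.5 and 26.1 CPM (log2 difference 1.99, SE 0.33, edgeR adjusted p 4.98e-05). SCD, which desaturates fatty acids, stood at 82.8, 133 and 103 CPM against 39.6, 43.1 and 26.3 CPM (log2 difference 1.55, SE 0.26, edgeR adjusted p 7.74e-05). The groups did not overlap for either gene, while SREBF2, the factor that drives cholesterol genes, stood at 159, 146 and 130.4 CPM against 157, 142 and 102 CPM (edgeR adjusted p 0.895). The number called was 7 with either RPMI quizartinib replicate 1 or hBMSC-CM quizartinib replicate 2 left out.

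Genes of DNA replication were called in part, while none of mitosis was. Of 37 replication genes 12 were higher, where 6.11% of all genes were, and 0 lower. Their median log2 difference was 0.58. FEN1, the flap nuclease of lagging strand synthesis, stood at 52.8, 99.7 and 79.7 CPM in the hBMSC-CM cultures and 21.4, 34.6 and 25.4 CPM in the RPMI cultures (log2 difference 1.51, SE 0.21, edgeR adjusted p 3.77e-06). MCM4, a subunit of the replicative helicase, stood at 61.1, 102 and 83.7 CPM against 27.6, 37.4 and 27.1 CPM (log2 difference 1.42, SE 0.21, edgeR adjusted p 6.52e-06), and CDC6, which loads the helicase, at 14.97, 22.6 and 18.3 CPM against 5.21, 7.89 and 7.34 CPM (log2 difference 1.45, SE 0.31, edgeR adjusted p 0.00126). Every hBMSC-CM value lay above the RPMI values in these genes. Of 28 mitosis genes 0 were called by edgeR, DESeq2 or limma voom and 1 had an unadjusted p under 0.05, with MKI67, a marker of cycling cells, at 519, 422 and 419 CPM against 532, 436 and 441 CPM (edgeR adjusted p 0.966). With the replicate block on the 6 libraries alone, 10 mitosis genes were lower and 0 higher. The difference between the lists was not tested.

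The BCL2 family, which decides over mitochondrial cell death, had 1 of 15 members higher, a share near the 6.11% of all genes, and 2 lower, where 2.05% of all genes were. With the replicate block 3 were higher and 3 lower. BCL2A1, an anti-apoptotic member, was higher, at 12.6, 15.9 and 17.8 CPM in the hBMSC-CM cultures and 1.10, 2.25 and 4.20 CPM in the RPMI cultures (log2 difference 2.61, SE 0.50, edgeR adjusted p 0.000396). BMF, a BH3-only protein that promotes death, was lower, at 150.1, 175 and 139.9 CPM against 418, 458 and 501 CPM (log2 difference -1.57, SE 0.32, edgeR adjusted p 0.000814). BCL2 itself, which protects cells and is the target of venetoclax, was also lower, at 28, 33.9 and 27.7 CPM against 59.3, 61.95 and 53.1 CPM (log2 difference -0.96, SE 0.16, edgeR adjusted p 7.57e-05). Each of these genes was separated between the media without overlap. The BH3-only gene BCL2L11, which encodes BIM, was at 70.2, 55.2 and 34.3 CPM against 54.8, 54.8 and 35.8 CPM with overlapping groups (edgeR adjusted p 0.87). Among 18 FOXO factors and targets 2 were higher and 2 lower, where 6.11% and 2.05% of all genes were, and 4 lower with the replicate block. The lower genes were PIK3IP1, an inhibitor of PI3K, at 10.6, 13.2 and 9.43 CPM against 28.1, 32.5 and 28.3 CPM (log2 difference -1.42, SE 0.29, edgeR adjusted p 0.000846), and SESN1, a restraint on mTORC1, at 32.3, 33.2 and 26.7 CPM against 58.8, 59.5 and 46.01 CPM (log2 difference -0.83, SE 0.20, edgeR adjusted p 0.00465). The higher genes were BCL6 and FOXO1, and FOXO1 was at 13.2, 17.5 and 12.9 CPM against 7.30, 6.98 and 6.33 CPM (edgeR adjusted p 0.0177). Without RPMI quizartinib replicate 3 neither remained (FOXO1 adjusted p 0.0615), and FOXO1 was also not called without hBMSC-CM quizartinib replicate 2 (0.105). The number higher was 1 when RPMI quizartinib replicate 2, hBMSC-CM quizartinib replicate 1 or hBMSC-CM quizartinib replicate 2 was left out. Of 20 PIKK and mTOR genes 1 was called, where 8.16% of all genes were, the mTOR inhibitor DEPTOR, which was lower, at 3.63, 3.70 and 5.09 CPM against 13.3, 11.4 and 12.1 CPM (log2 difference -1.57, SE 0.25, edgeR adjusted p 3.52e-05), while MTOR stood at 64.6, 68.1 and 64.9 CPM against 55.1, 65.3 and 54.6 CPM (edgeR adjusted p 0.876).

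Of 31 tested genes of myeloid differentiation and granules 14 were higher, where 6.11% of all genes were, 0 lower and 17 not called. In 23 of them the log2 difference was above 0, and the list's median was 0.74. S100A9, a subunit of calprotectin in neutrophils and monocytes, stood at 76.2, 71.6 and 98.98 CPM in the hBMSC-CM cultures and 2.91, 3.64 and 7.25 CPM in the RPMI cultures (log2 difference 4.16, SE 0.41, edgeR adjusted p 4.96e-09). CYBB, the catalytic subunit of the oxidase that makes superoxide, stood at 52.1, 82.2 and 87.9 CPM against 11.9, 23.5 and 25.3 CPM (log2 difference 1.87, SE 0.31, edgeR adjusted p 4.12e-05). LYZ, lysozyme, stood at 983, 938 and 740.4 CPM against 458, 369.7 and 401 CPM (log2 difference 1.12, SE 0.23, edgeR adjusted p 0.00104). These 3 genes belong to granulocytes and monocytes and were separated between the media. CD14, the monocyte co-receptor for lipopolysaccharide, had 31, 38 and 24 counts in hBMSC-CM and 0 in every RPMI culture, which makes it at least 13.0-fold higher against a floor of 3 counts a library. The list's median was also 0.74 with CD14 at that bound. The primary granule proteases were not called, with ELANE at 3212, 4157 and 5695 CPM against 2644, 2886 and 3916 CPM (edgeR adjusted p 0.284) and PRTN3 at 3714, 5397 and 6662 CPM against 2579, 3166 and 3673 CPM (0.27). Haptoglobin (HP), an acute-phase protein also stored in neutrophil granules, was among the largest rises, at 81.1, 132 and 110.4 CPM against 6.31, 13.6 and 6.79 CPM (log2 difference 3.60, SE 0.42, edgeR adjusted p 1.27e-07), with the caution that it shares sequence with HPR. ADGRG3, an adhesion receptor of granulocytes, stood at 29.1, 36.6 and 41.6 CPM against 3.15, 6.20 and 2.10 CPM (log2 difference 3.22, SE 0.42, edgeR adjusted p 1.05e-06).

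Of 17 receptors that sense chemoattractants and microbial products, 8 were higher and 1, CXCR2, was lower (2 lower with the replicate block). Over all genes 6.11% were higher and 2.05% lower. The list's median log2 difference was 0.88. TLR4, which recognises lipopolysaccharide, stood at 65.1, 51.8 and 42.9 CPM against 18.3, 16.9 and 18.8 CPM (log2 difference 1.57, SE 0.23, edgeR adjusted p 8.51e-06). LTB4R, the leukotriene B4 receptor, stood at 59.7, 66.6 and 86.3 CPM against 19.03, 23.5 and 24.4 CPM (log2 difference 1.67, SE 0.25, edgeR adjusted p 1.07e-05), and PTAFR, the receptor for platelet-activating factor, at 39.4, 53.8 and 62.7 CPM against 9.38, 16.3 and 17.1 CPM (log2 difference 1.87, SE 0.33, edgeR adjusted p 0.000126). The lowest hBMSC-CM value exceeded the highest RPMI value in each. CXCR4, through which marrow retains leukemia cells, stood at 157, 167 and 142 CPM against 142, 148 and 144 CPM (edgeR adjusted p 0.829).

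Among 18 myeloid and leukemia transcription factors 3 were higher and 1 lower, where 6.11% and 2.05% of all genes were. CEBPB, the factor of emergency granulopoiesis, stood at 77.01, 77.7 and 122 CPM against 23.8, 28.3 and 32.97 CPM (log2 difference 1.70, SE 0.20, edgeR adjusted p 1.43e-07). CEBPD, a STAT3 target, stood at 141, 165 and 241 CPM against 38.3, 65.6 and 87.8 CPM (log2 difference 1.51, SE 0.36, edgeR adjusted p 0.00393), and GATA2, a factor of stem and progenitor cells, at 15.2, 12.4 and 24.8 CPM against 6.34, 5.79 and 6.76 CPM (log2 difference 1.47, SE 0.25, edgeR adjusted p 7.75e-05). The master factors CEBPA and SPI1 were not called, with CEBPA at 744, 777 and 879 CPM against 591, 713 and 729 CPM (edgeR adjusted p 0.771). IRF8, which directs monocyte and dendritic cell fate, was lower, at 149, 200.2 and 155 CPM against 254, 326 and 247 CPM (log2 difference -0.71, edgeR adjusted p 0.0102), and did not pass without RPMI quizartinib replicate 2 (adjusted p 0.0926), hBMSC-CM quizartinib replicate 1 (0.0642) or hBMSC-CM quizartinib replicate 3 (0.0663).

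Of 19 genes of the NF-kB response 5 were higher and 1 lower, where 6.11% and 2.05% of all genes were. The number higher was 3 without RPMI quizartinib replicate 1 or without hBMSC-CM quizartinib replicate 3. BCL3, an atypical IkB protein that is also a STAT3 target, stood at 215, 170.4 and 369.9 CPM against 34.7, 43.9 and 68.8 CPM (log2 difference 2.36, SE 0.32, edgeR adjusted p 1.77e-06). ICAM1, an adhesion molecule, stood at 11.2, 12.99 and 13.3 CPM against 3.40, 3.44 and 2.02 CPM (log2 difference 2.08, SE 0.31, edgeR adjusted p 1.22e-05). RELA, the main NF-kB subunit, was at 89.8, 55.2 and 47.7 CPM against 65.8, 50.6 and 32.8 CPM with overlapping groups (edgeR adjusted p 0.755). Of 24 interferon response genes 2 were higher, a share near the 6.11% of all genes, and 1 was lower. The higher genes were MX2, an antiviral GTPase, at 35.4, 33.3 and 29.4 CPM against 13.7, 14.04 and 16.2 CPM (log2 difference 1.16, SE 0.20, edgeR adjusted p 8.62e-05), and SAMHD1, which degrades nucleotides, at 111, 121 and 91.1 CPM against 47.3, 54.8 and 49.96 CPM (log2 difference 1.09, SE 0.19, edgeR adjusted p 0.000118). The 1 lower gene, IFIT2, was at 0.546, 1.02 and 0.0443 CPM against 3.51, 4.33 and 2.73 CPM (edgeR adjusted p 0.0104) and lost its call without hBMSC-CM quizartinib replicate 3 (adjusted p 0.0761). In MHC class II 0 of 8 genes were called by edgeR, DESeq2 or limma voom and 0 had an unadjusted p under 0.05.

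Of 23 genes of endoplasmic reticulum chaperones and the unfolded protein response, 9 were higher, where 6.11% of all genes were, 0 lower and 14 not called. Their median log2 difference was 0.60. HSPA5, which encodes the chaperone BiP, stood at 785, 1174 and 1006 CPM in the hBMSC-CM cultures and 259.7, 353 and 274 CPM in the RPMI cultures (log2 difference 1.74, SE 0.28, edgeR adjusted p 4.12e-05). XBP1, the factor whose splicing marks the unfolded protein response, stood at 215, 248 and 191 CPM against 29.9, 50.4 and 29.3 CPM (log2 difference 2.58, SE 0.42, edgeR adjusted p 4.12e-05), and its target SDF2L1 at 46.1, 66.5 and 113 CPM against 16.1, 17.4 and 20.4 CPM (log2 difference 2.06, SE 0.34, edgeR adjusted p 4.11e-05). The media were separated in each of the 3. P4HB, an abundant disulfide isomerase, was at 1866, 1956 and 1945 CPM against 1893, 1806 and 1555 CPM (edgeR adjusted p 0.836).

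Among the genes that fell most, NREP, a neuronal regeneration protein, stood at 50.8, 60.1 and 52.7 CPM in the hBMSC-CM cultures and 189.7, 219.6 and 204 CPM in the RPMI cultures (log2 difference -1.91, SE 0.19, edgeR adjusted p 3.73e-09). PLD4, an endolysosomal nuclease of dendritic cells, stood at 126, 224 and 195 CPM against 643, 762 and 691 CPM (log2 difference -1.95, SE 0.34, edgeR adjusted p 0.000119). SOX13, an HMG-box factor, was at 4.05, 6.40 and 2.08 CPM against 19.8, 22.2 and 24.2 CPM (log2 difference -2.39, SE 0.38, edgeR adjusted p 2.64e-05), and RHOBTB2, a BTB-domain protein, at 24.5, 29.9 and 20.4 CPM against 87.7, 102 and 89.5 CPM (log2 difference -1.90, SE 0.36, edgeR adjusted p 0.000287). These genes were picked among those whose replicate values do not overlap, so the lack of overlap between the media was set by the choice.

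The same media were compared without drug, in vehicle-treated cultures that share no library with the comparison above. There 195 of 12939 genes (1.51%) were called, 168 higher (1.3%) and 27 lower (0.209%) in hBMSC-CM. Blocking by replicate gave 373, and 109 to 129 were called when an RPMI vehicle culture was left out. Of the 791 genes higher under quizartinib 127 (16.1%) were also higher without drug, which is 75.6% of those 168, and of the 265 lower 24 (9.06%) were also lower, 88.9% of those 27. Without drug the JAK-STAT list had 8 of 21 members higher, 0 lower and a median of 0.86, the myeloid list 8 of 31 and a median of 0.57, and the chemoattractant receptors 6 of 17. The ERK feedback list had 2 of 14 higher and a median of -0.090. In ribosome biogenesis, DNA replication and the chaperones 0 were called by edgeR, with unadjusted p values under 0.05 in 4 lower, 1 lower and 4 higher genes, and the medians were -0.27, -0.16 and 0.25.

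The difference between the medium effects with and without quizartinib was tested as an interaction, which rests on 12 libraries. It was called in 254 genes (1.96%), and in 455 with the replicate block. The signed log2 difference under quizartinib minus that under vehicle was above 0 in 231 (1.79%) and below 0 in 23 (0.178%). Of these 23 genes 12 were called lower in hBMSC-CM under quizartinib, so a value below 0 does not by itself mean a weaker medium effect. Of the lists, ribosome biogenesis had 25 of 49 members with a called interaction above 0, DNA replication 6 of 37, JAK-STAT targets 5 of 21, ATF4 and one-carbon genes 5 of 32 and ERK feedback 4 of 14. The respective medians of the interaction were 1.30, 0.67, 0.45, 0.60 and 1.72. HPDL, a mitochondrial dioxygenase, stood at 14.9 ± 1.85 CPM in hBMSC-CM and 1.88 ± 0.690 in RPMI under quizartinib and at 35.6 ± 7.64 and 46.8 ± 7.71 CPM under vehicle (mean ± SD, n = 3), an interaction of 3.38 ± 0.44 log2 units (± SE, edgeR adjusted p 1.03e-05). For SLC7A5 the corresponding levels were 122 ± 22.03, 26.8 ± 3.65, 292 ± 12.04 and 429.9 ± 58.3 CPM (interaction 2.74, adjusted p 3.62e-06). In both genes the hBMSC-CM mean lay below the RPMI mean under vehicle, where the difference was not called, and above it under the drug. Among JAK-STAT targets the interaction was called for PIM2 (1.84, adjusted p 0.00187) and CISH (1.42, 0.000119). It was above 0 without passing in SOCS3 (0.90, 0.242), and LRG1 was at 0.21 (0.941). BCL3 was the member whose medium effect was smaller under quizartinib, at 252 ± 105 and 49.1 ± 17.6 CPM with the drug and 87.04 ± 29.4 and 5.26 ± 2.28 CPM without (interaction -1.70, adjusted p 0.0272).

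**Figure D3:**
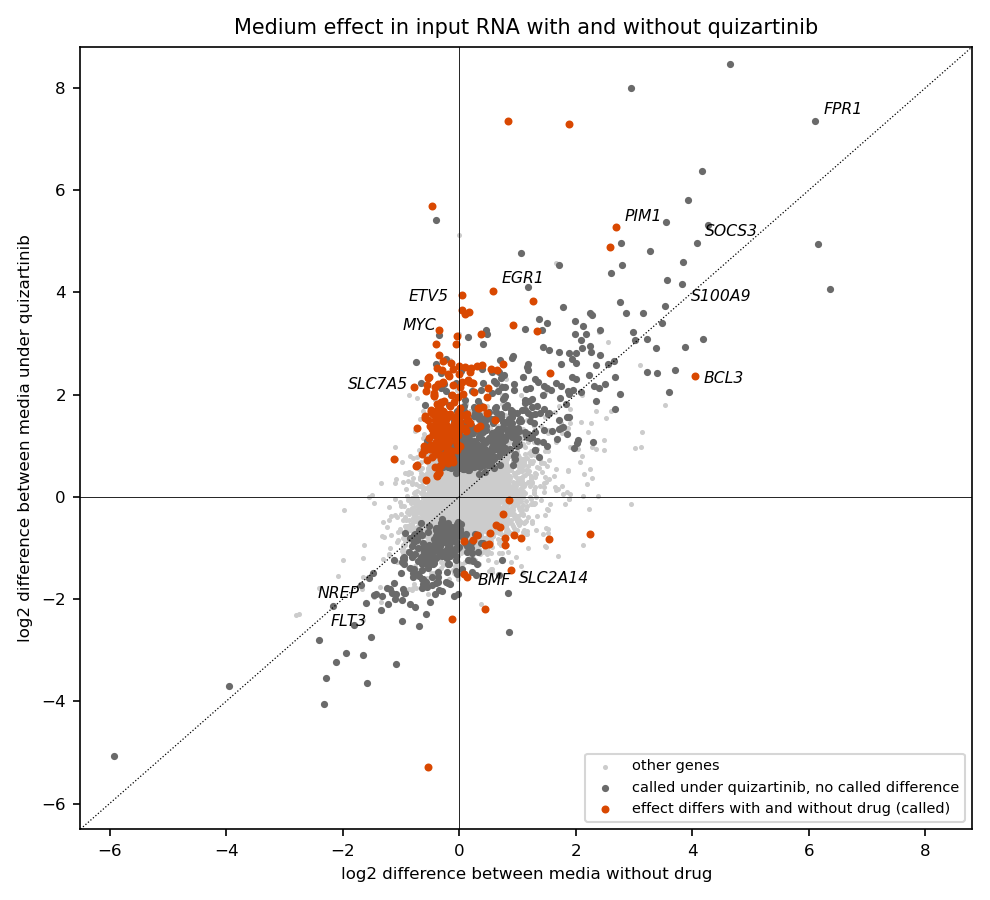
Log2 difference between hBMSC-CM and RPMI in input RNA without drug (x axis) and under quizartinib (y axis), each point a tested gene, with genes called in the interaction in orange and 3 genes outside the axes. ETV5 and SLC7A5 lie at 0.091 and -0.56 on the x axis and at 3.58 and 2.18 on the y axis, whereas SOCS3 lies at 4.07 and 4.97.

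Under the combo of quizartinib and everolimus, again without shared libraries, 693 genes (5.36%) differed between the media, 532 higher (4.11%) and 161 lower (1.24%). Of the 791 genes higher under quizartinib 443 (56.0%) were also higher under the combo, 83.3% of those 532, and of the 265 lower 123 (46.4%) were also lower, 76.4% of those 161. The JAK-STAT list had 18 of 21 higher and a median of 1.58, and ERK feedback 9 of 14 and a median of 2.33. Ribosome biogenesis had 7 of 49 higher and a median of 0.43, cholesterol and fatty acid synthesis 4 of 27 and 0.21, DNA replication 4 of 37 and 0.35, and the chaperones 2 of 23 and 0.21. Among single genes, SOCS3 differed by 5.85 log2 units under the combo and 4.97 under quizartinib alone, RRS1 by 1.12 and 2.00, and HSPA5 by 0.85 and 1.74. Whether the medium effects with and without everolimus differ was not tested.

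The effect of quizartinib itself in RPMI shares the 3 RPMI quizartinib libraries with the comparison of media, so the values are only set side by side. Quizartinib changed 4477 genes in RPMI (34.6%), 2149 higher (16.6%) and 2328 lower (18%). In RPMI it lowered 46 of 49 ribosome biogenesis genes, 36 of 37 replication genes and 10 of 14 ERK feedback genes, and it raised 8 of 8 MHC class II genes. Of the 21 JAK-STAT targets 7 were lower and 5 higher with the drug. RRS1 stood at 117 ± 14.4 CPM under vehicle and 13.04 ± 0.485 under quizartinib in RPMI, and at 86.2 ± 11.8 and 52.1 ± 8.26 CPM in hBMSC-CM (mean ± SD, n = 3). SLC29A1 stood at 131 ± 23.6 and 3.53 ± 0.837 CPM in RPMI and at 103 ± 14.9 and 24.3 ± 1.78 CPM in hBMSC-CM. Both genes were lower with the drug in either medium, and the level in hBMSC-CM with drug lay between the vehicle and drug levels of RPMI. BMF ran the other way, at 29.9 ± 6.37 and 459 ± 41.7 CPM in RPMI and at 32.9 ± 14.4 and 155 ± 17.9 CPM in hBMSC-CM. PIM2 stood at 16.3 ± 2.20 and 6.52 ± 1.07 CPM in RPMI and at 27.5 ± 0.464 and 39.3 ± 1.54 CPM in hBMSC-CM, so that its drug-treated hBMSC-CM level was above the vehicle level of RPMI.

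The heavy polysome RNA of the same 6 cultures showed most of these differences again. There 1427 genes (11%) were called, 769 higher (5.94%) and 658 lower (5.09%) in hBMSC-CM. Blocking by replicate gave 2228, and 949 were called without hBMSC-CM quizartinib replicate 2. Of the 791 genes higher in input 546 (69.0%) were also higher in polysomes, 71.0% of those 769, and of the 265 lower 210 (79.2%) were also lower, 31.9% of those 658. The JAK-STAT list had 16 of 21 higher, 1 lower and a median of 1.51, ERK feedback 10 of 14 and 1.94, and ribosome biogenesis 23 of 49 and 0.68. Genes of ribosomal proteins were called in polysomes. There 36 of 77 were higher and 0 lower with a median of 0.67, where the median over all genes was -0.069 and the input median was -0.26. All 77 had a log2 difference above 0, RPL13A at 0.49 and RPS2 at 0.44 (edgeR adjusted p 0.132 and 0.158). The count of 36 was 6 without hBMSC-CM quizartinib replicate 3, 9 without RPMI quizartinib replicate 2, 23 with scaling by library size alone, 18 with polysome libraries alone and 0 when only the compared groups were fitted, or 64 when these were fitted with the replicate block, with medians of 0.49 to 0.79 over the leave-one-out fits. Whether polysome and input differences differ was not tested.

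**Figure D4:**
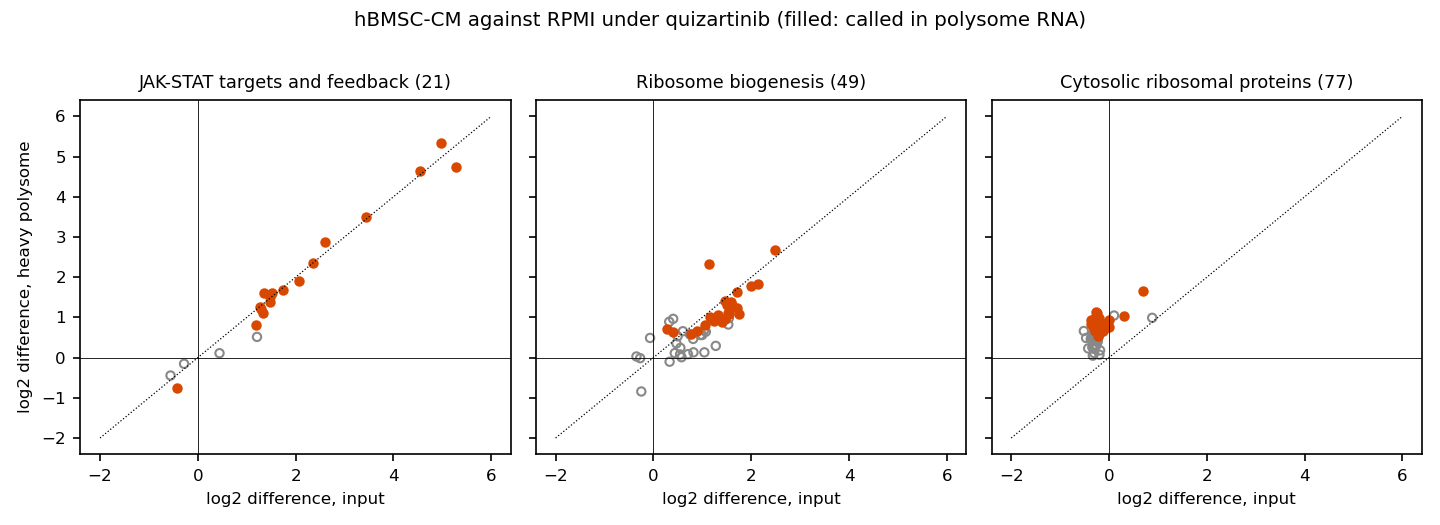
Log2 difference between hBMSC-CM and RPMI under quizartinib in input RNA (x axis) and in heavy polysome RNA (y axis) for JAK-STAT targets, ribosome biogenesis genes and cytosolic ribosomal proteins, each point a gene, filled where called in polysomes. JAK-STAT and biogenesis genes lie along the diagonal, and ribosomal proteins lie mostly left of 0 in input and all above 0 in polysomes.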

How the data were processed

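Poly(A) RNA of whole-cell lysates (input) and of heavy polysomes from MOLM-13 cells was sequenced in 42 libraries of 14 groups. Per the labels and the study's methods the authors trimmed the reads, aligned them to hg38 with STAR 2.6.0a and deposited raw read counts per gene. The strand setting of the counting was not given in the sources used here. Of 111 genes named with values, some of the closing observations not included, 41 share exon sequence with a gene on the opposite strand. Reads of such gene pairs cannot be told apart without that setting.

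Rows of the same gene name were added up. The 12939 genes whose mean over all libraries reached 1 count and 1 CPM (counts scaled to a common total, with TMM factors) were kept. A gene below 1 CPM in a group could pass through other libraries, as did IL7R, IL15RA, ETV4 and CD14, which were below it in RPMI under quizartinib. The model of edgeR 4.0.16 (quasi-likelihood, robust, in R 4.3.3) held the 14 group means of the 42 libraries, so the groups shared the estimate of spread, and p-values were Benjamini-Hochberg adjusted over all genes tested. A log2 difference is hBMSC-CM over RPMI. Alternatives were DESeq2 1.42.0, limma 3.58.1 voom, other scalings and filters, fewer libraries, a replicate block and each culture left out. Same replicate numbers deviated together from the group means (r = 0.60, 0.38 and 0.56, different numbers -0.51 to -0.057), so the numbers pair the samples. The main model held no term for these pairs. The script was tested on simulated counts.

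Members and gene lists were chosen with earlier results of these data known. The text names the genes with the largest called differences at a mean of at least 10 CPM, taken only where replicate values do not overlap. It also names the called list members of lowest adjusted p, the most abundant uncalled ones and a fixed set of pathway genes. Of 111 genes named, which leave out some of those in the closing observations, 80 were called. All 80 had values without overlap, so that trait is no separate support. A few results are not reported here. Gene positions are those of GENCODE on GRCh38. Depth was 19.4 to 34.0 M counts, and a floor of 3 counts was used for genes at 0, which covers counting error only.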

Additional observations from a re-analysis of the deposited data

Results flagged for a closer look

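The medium effect under quizartinib differed from the medium effect without drug in 254 genes by the interaction term of edgeR's test (adjusted p under 0.05). The difference of log2 effects, quizartinib minus vehicle, is given here for each such gene named above. Among ERK-dependent genes and MYC it was 3.49 for ETV5, 3.45 for EGR1, 3.19 for MYC, 2.81 for ETV4, 2.56 for IER3 and 2.29 for SPRED1. Among genes of transport and metabolism it was 3.38 for HPDL, 3.13 for SLC29A1, 2.93 for SLC7A1, 2.74 for SLC7A5, 2.12 for FASN, 1.90 for SLC2A3, 1.70 for SLC1A5, 1.51 for MTHFD2 and 1.42 for LDHA. Ribosome biogenesis genes stood at 2.56 for DDX21, 2.43 for RRS1, 2.09 for NOLC1 and 1.76 for BYSL. Replication genes stood at 1.69 for MCM4, 1.69 for CDC6 and 1.52 for FEN1. The JAK-STAT targets gave 1.84 for PIM2, 1.43 for CCND2, 1.42 for CISH and 1.05 for CCND3. The values of XBP1 and PPRC1 were 2.19 and 2.15. The difference was below 0 in SLC2A14 (-2.32), SOX13 (-2.26), BCL3 (-1.70) and BMF (-1.70), where SLC2A14 may share reads with SLC2A3.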

How the results depend on the processing

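Of 1878 values of 111 named genes, 1829 stayed on their side of the threshold, 26 of them uncalled values that changed sign. The call was lost in 13 and gained in 36, and none of the 111 genes changed sign where it was called. These genes leave out NAPSB, CCL22, SPIB and SLC15A4 of the next section, which lost their calls in some fits with a culture left out. Of 1054 list counts 162 moved by over 1.5 times, and 3 of 93 list medians changed sign under another scaling (DESeq2, RLE or library size), all for the leukemia line markers, as did that of nuclear oxidative phosphorylation under limma voom. Scalings moved the median of all genes by at most 0.039. For the media under quizartinib (1056) the number of genes called was 2018 with input libraries alone, 2275 with a replicate block within each fraction, 4786 with the replicate block and only the groups compared, and 703 (without hBMSC-CM quizartinib replicate 3) to 932 with a culture left out. For the media without drug (195) it was 293 by DESeq2, 105 with only the groups compared, 367 with one fraction, 373 with the replicate block, 585 with the block within fractions, 544 with the block and only the groups compared, and 109 to 171 with a culture left out, lowest without RPMI vehicle replicate 1 (109), replicate 3 (124) and replicate 2 (129). Under the combo (693) the same fraction gave 1158, the block within fractions 1372, the block with only the groups compared 2865, and leaving out a culture 526 to 587. The interaction (254) gave 415 with only the groups compared, 740 with the same fraction, 455 with the replicate block, 876 with the block within fractions, 2040 with the block and only the groups compared, and 170 to 243 with a culture left out. Quizartinib in RPMI (4477) gave 8166 with the block and only the groups compared and 3647 to 4056 with a culture left out. The polysome comparison (1427) gave 205 with only the groups compared, 829 with the same fraction, 2228 with the replicate block, 3374 with the block within fractions, 3338 with the block and only the groups compared, and 949 (without hBMSC-CM quizartinib replicate 2) to 1427 with a culture left out. The causes were not tested. With 3 cultures a group and genes near 1 CPM, differences under 2-fold often did not pass, and an uncalled gene is not shown to be alike in both media.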

Other observations

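Of 14 tested genes associated with plasmacytoid dendritic cells 8 were called lower in hBMSC-CM and 1 higher, in a list that was chosen after its values were seen and has no test of its own, with a median log2 difference of -0.67, where 2.05% of all genes were called lower. CUX2, a homeobox factor, stood at 2.31, 1.93 and 0.753 CPM against 12.9, 17.2 and 13.1 CPM (log2 difference -3.10, SE 0.41, edgeR adjusted p 1.54e-06). NAPSB, a transcribed pseudogene, stood at 42.8, 118 and 87.2 CPM against 171, 261 and 297 CPM (log2 difference -1.55, SE 0.37, edgeR adjusted p 0.00465) and lost its call without hBMSC-CM quizartinib replicate 1. The number lower was 5 without RPMI quizartinib replicate 2, hBMSC-CM quizartinib replicate 1 or hBMSC-CM quizartinib replicate 3, and SPIB, IRF8 and SLC15A4 each lost the call in 2 or 3 of these fits. SPIB (edgeR adjusted p 0.0467) kept its call with a culture left out only without hBMSC-CM quizartinib replicate 2, and lost it with RLE scaling. The lower genes FLT3, IL3RA, IRF8 and PLD4 were already given above. The exception was GZMB, granzyme B, at 2.76, 3.78 and 2.97 CPM against 0.192, 0.202 and 0.164 CPM (log2 difference 4.06, SE 0.68, edgeR adjusted p 8.77e-05). Its RPMI levels lay below the filter's 1 CPM, so levels in hBMSC-CM helped carry GZMB past it. TCF4, the defining factor of the lineage, was at 9.83, 11.1 and 9.88 CPM against 7.57, 6.68 and 7.23 CPM (edgeR adjusted p 0.347), the opposite order from most of the list. Without drug 4 of the 14 were lower and 1 higher, and in polysomes under quizartinib 9 were lower and 1 higher.

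The leukocyte immunoglobulin-like receptors, inhibitory and activating receptors of myeloid cells encoded side by side on chromosome 19, were also examined after their values were seen. Of 9 tested members 4 were higher, where 6.11% of all genes were, and 0 lower, with no test of the list itself. Under quizartinib LILRA5, LILRA6 and LILRB3, which are among the 4, had means of 0.226, 0.0612 and 0.662 CPM in RPMI input. These lie below the filter's 1 CPM, so levels in hBMSC-CM helped carry these genes past it. With a stricter filter of 10 CPM 2 members were left and 0 were called, with a median log2 difference of 0.056 instead of 0.91. LILRA5 stood at 9.35, 8.88 and 9.08 CPM against 0.494, 0.101 and 0.0818 CPM (log2 difference 5.32, SE 0.87, edgeR adjusted p 3.92e-05), LILRB3 at 15.8, 13.3 and 19.2 CPM against 0.329, 0.784 and 0.873 CPM (log2 difference 4.59, SE 0.62, edgeR adjusted p 2.08e-06) and LILRB2 at 8.22, 9.29 and 10.1 CPM against 1.70, 1.16 and 2.73 CPM (log2 difference 2.30, SE 0.49, edgeR adjusted p 0.00145). Their neighbour LILRB4 stood at 161, 185 and 153 CPM against 207, 230.1 and 196 CPM, lower in every hBMSC-CM culture without passing (edgeR adjusted p 0.365). LILRB3 and LILRA6 are close in sequence and may share reads. HBEGF, an EGF receptor ligand, was at 62.9, 58.2 and 102 CPM against 8.47, 9.66 and 13.3 CPM (log2 difference 2.83, SE 0.43, edgeR adjusted p 1.27e-05). TGM2, a transglutaminase, was at 7.80, 4.61 and 19.3 CPM against 0.0274, 0.101 and 0 CPM (edgeR adjusted p 1.77e-06). The chemokine CCL22 stood at 0.417, 1.19 and 39.9 CPM against 0, 0.101 and 0 CPM, and nearly all of its signal came from hBMSC-CM replicate 3. In RPMI both TGM2 and CCL22 lay below the filter's 1 CPM, so levels in hBMSC-CM helped carry them past it.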
